A study of Mus musculus with 12 samples.

Results

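The cyclins and the cyclin-dependent kinases (CDKs) are described here across RNA libraries of cultured mouse fibroblasts. They are 44 protein-coding genes, 25 cyclins and 19 CDKs, among 20979 protein-coding genes and 27179 gene IDs with counts. They were chosen by symbol, as Ccn followed by a letter or Cdk followed by a number, so the matricellular genes Ccn1 to Ccn6 were not included. Cdk3, annotated as a transcribed pseudogene in the mouse, was left out (11, 4 and 15 counts in replicates 1 to 3).

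RNA came from an immortalized NIH3T3 fibroblast line without endogenous RelA (RelA-/-), the p65 subunit of NF-κB, that carried RelA fused to the red fluorescent protein DsRed, a background shared by all groups. The labels list 3 samples for each of 4 groups, held for 2 h in microfluidic devices: IL-1 (the cytokine IL-1β at 0.2 ng/mL), LPS (a bacterial lipid, at 100 ng/mL), PAM (at 0.2 ng/mL) and media alone. Every table deposited for LPS, PAM or media, 9 in all, repeated the counts of the third IL-1 library, so only the 3 IL-1 libraries could be used, with 17254518, 18091073 and 18578859 counts. No group could be compared with another, so no test was possible, and nothing here tells an effect of IL-1 on a gene. All errors are SD over these 3 libraries (n = 3), which the labels do not describe as separate cultures, so the spread may be technical. Fibroblast markers were at 1 count per 1e6 counts of the library (CPM) or more in each library in 10 of 10 cases, with Vim at 3162 ± 76.6 CPM. Epithelial markers reached that level in 0 of 7 cases, endothelial markers in 1 of 6 (Egfl7) and macrophage markers in 4 of 8. The 8 macrophage markers summed to 24.3, 27.6 and 18.2 CPM. Among them Csf1r had 32, 40 and 27 counts and Cd68 20, 55 and 36 counts. Lyz2 averaged 9.69 ± 2.70 CPM and Cd74 averaged 9.50 ± 1.70 CPM, while Ptprc, Adgre1, Itgam and Fcgr1 had 9, 4, 2 and 0 counts over the 3 libraries. The part of such RNA in the levels below was not tested.

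A CDK is a kinase that is inactive until a cyclin binds it, and most cell cycle cyclins are made and destroyed in turn. Cyclin D with CDK4 or CDK6 starts the phosphorylation of the retinoblastoma protein in G1, cyclin E with CDK2 carries cells into S phase, and cyclins A and B with CDK1 drive G2 and mitosis. Growth factors act on this chain mainly through the D cyclins, and in fibroblasts cyclin D1 is the classical mitogen-responsive member. Another set, among them CDK7, CDK8, CDK9, CDK12 and CDK13, phosphorylates RNA polymerase II or works within the transcription machinery, and its cyclins vary little over the cycle. Much of the control of all of these proteins is by protein turnover and phosphorylation, which RNA counts do not show.

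Nearly the whole family was present. In each library 41 of the 44 genes (93.2%), 23 cyclins and 18 CDKs, were at 1 CPM or more, against 51.1% of all protein-coding genes. The exceptions were Cdk15, the cyclin A1 gene Ccna1 and the gene of the meiotic cyclin B3, Ccnb3, with 0, 1 and 2 counts over the 3 libraries. A count of 0 in all 3 libraries allows up to 3 counts, or 0.0556 CPM, counting error only. Together the 44 genes took 4795, 4832 and 4835 CPM, and Cdk4, Ccnd2, Ccnd1 and Ccng1 held 52.6% of these reads. Since longer transcripts give more reads, members of the family are compared with each other per kb of merged exons. The longest transcript and the coding length served as other lengths, and a ratio between members that either of them moved by over 1.5 times, which 19 of 28 did, is given with its range over the 3 lengths. Per kb of merged exons the median of the 41 genes was 9.90 CPM per kb, beside 6.94 CPM per kb over all protein-coding genes at 1 CPM or more. The levels spanned from 354 ± 11.4 CPM per kb for Cdk4 to 0.802 ± 0.0604 CPM per kb for Cdk13. Of the 40 neighbouring pairs in this order, 23 kept their order in every library, and in 21 the ranges of the 3 libraries did not overlap.

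**Figure D1:**
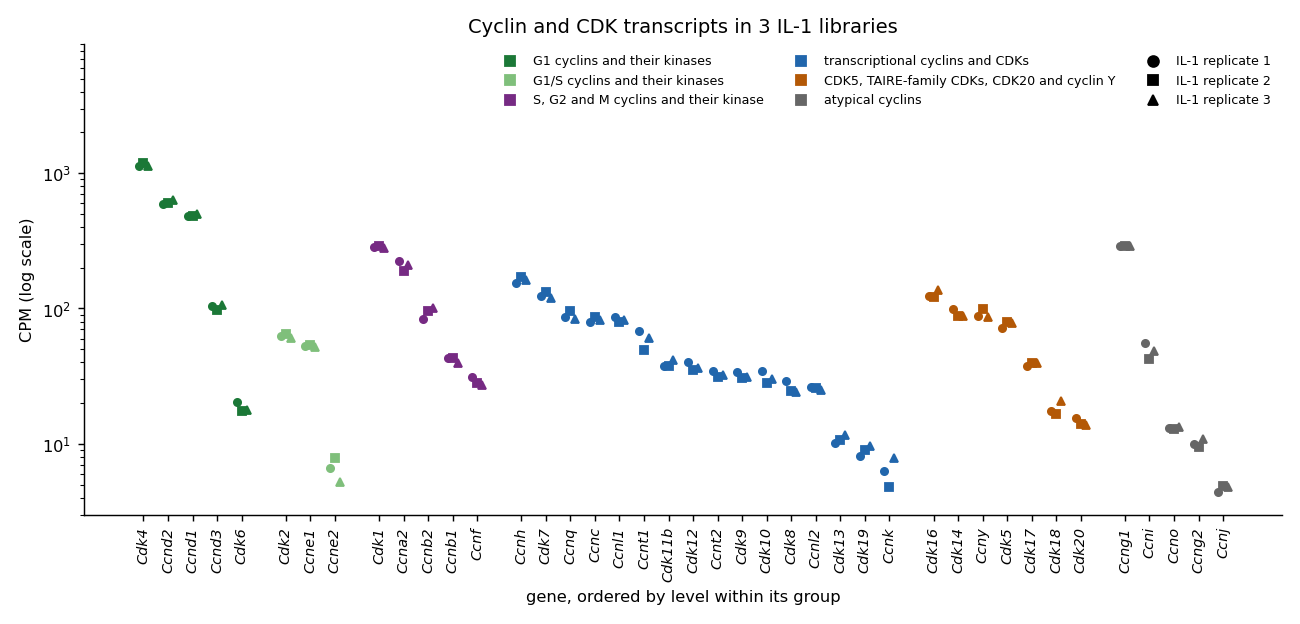
Level of each of the 41 detected cyclins and CDKs in CPM (log axis, not corrected for length), by functional group, with 1 point for each IL-1 library. The points of most genes lie side by side at similar heights, while Ccnk, Ccne2 and Ccnt1 are visibly spread.

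The G1 genes held the largest sum of the 6 groups per kb, 535 ± 10.7 CPM per kb, and Cdk4 made up 66.1% of it (47.6% per coding length). Cdk4, the main partner of the D cyclins in fibroblasts (chromosome 10, 127063535 to 127067288, plus strand, GRCm38.p6), had 1123, 1192 and 1133 CPM in replicates 1 to 3, or 354 ± 11.4 CPM per kb, rank 1 of the family. Its paralog Cdk6 had 20.3, 17.5 and 17.8 CPM, or 1.32 ± 0.113 CPM per kb. Per kb Cdk4 was 269 ± 28.5-fold above Cdk6 (67.2 to 350.4 over the 3 lengths), higher in 3 of 3 libraries, and made up 99.6% ± 0.0409 of the sum of both genes. The start of Cdk4 is shown for a feature noticed in the motif search described below. In the RefSeq promoter table of GRCm38.p6 (250 bases before to 50 after each start), its window had 4 copies of the E-box CACGTG, which reads the same on both strands and is the site known for MYC and USF factors. At least 4 copies were found in 8 of 32851 windows (0.0244%) and at least 1 in 7.15%. The stretch from 180 bases before to 20 bases after the start (chr10:127063355-127063554, plus strand) reads as follows, with each CACGTG in capitals.

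Cdk4: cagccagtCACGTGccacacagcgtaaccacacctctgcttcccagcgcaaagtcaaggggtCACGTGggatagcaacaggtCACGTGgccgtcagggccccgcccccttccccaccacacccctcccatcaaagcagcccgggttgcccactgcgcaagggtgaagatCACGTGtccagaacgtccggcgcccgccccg

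A match of letters is a description of the window and does not show that a factor binds there. Among the 35 genes of the family with a window, CACGTG was also in those of Cdk6, Cdk7, Cdk8, Cdk18 and Cdk20, 17.1% of the 35 together, against 7.84% of the windows of protein-coding genes. No window was found for Ccnd1, Ccnd2, Ccna2, Ccne2, Ccnh, Ccny, Cdk5, Cdk17 and Cdk19.

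Transcripts of all 3 D cyclins were present, at unequal levels. Ccnd1, which encodes cyclin D1 (chromosome 7, 144929931 to 144939831, minus strand), had 482, 481 and 500.5 CPM, or 104 ± 2.32 CPM per kb. Ccnd2, which encodes cyclin D2 (chromosome 6, 127125162 to 127152188, minus strand), had 589.6, 605 and 629.9 CPM, or 64.6 ± 2.16 CPM per kb. Per kb of merged exons Ccnd1 was 1.60 ± 0.0269-fold as high as Ccnd2 in 3 of 3 libraries (0.786 to 1.60 over the 3 lengths), but this order depended on the length used. Per coding length the log2 ratio turned to -0.35, with Ccnd2 higher, and with no length correction the ratio of the reads was 0.802 ± 0.0134. Ccnd3, which encodes cyclin D3, had 105, 97.8 and 107 CPM, or 11.8 ± 0.530 CPM per kb, so that Ccnd1 stood 8.82 ± 0.306-fold above it (4.69 to 8.82 over the 3 lengths) in 3 of 3 libraries. Ccnd3 shared a stretch of 89 identical bases with its pseudogene Ccnd3-ps, which has no counts of its own, and reads that fit both may have been dropped. As kinase over cyclin per kb, Cdk4 was 3.42 ± 0.158-fold as high as Ccnd1 and 5.48 ± 0.248-fold as high as Ccnd2 (1.80 to 5.83 over the 3 lengths).

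The 3 G1/S genes, the fewest of any group, formed the smallest sum per kb, 31.8 ± 1.16 CPM per kb. Such sums are over unequal numbers of genes, from 3 here to 16 transcriptional genes, and are not levels per gene. Cdk2, the kinase of the cyclin E and cyclin A complexes (chromosome 10, 128697938 to 128705051, minus strand), had 63.1, 65.2 and 60.8 CPM, or 10.1 ± 0.350 CPM per kb. Ccne1, which encodes cyclin E1 (chromosome 7, 38097984 to 38107490, minus strand), had 52.6, 54.00 and 51.7 CPM, or 19.8 ± 0.441 CPM per kb. Its paralog Ccne2 had 6.61, 7.85 and 5.22 CPM, or 1.88 ± 0.376 CPM per kb. Ccne1 was therefore 10.8 ± 2.01-fold above Ccne2 per kb in 3 of 3 libraries, and Ccne2 was among the most spread members, with a coefficient of variation (CV) of 20.0%. Cdk2 stood at 0.511 ± 0.00661 of Ccne1 per kb (0.511 to 1.41 over the 3 lengths), lower in 3 of 3 libraries, but above it per coding length (log2 ratio 0.49). The D cyclins summed to 180.0 ± 4.65 CPM per kb and the E cyclins to 21.7 ± 0.815 CPM per kb, a ratio of 8.31 ± 0.506 (28.2 per coding length).

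The S, G2 and M genes summed to 183 ± 3.20 CPM per kb, with 5 of 7 at 1 CPM or more. Cdk1, the mitotic kinase (chromosome 10, 69335146 to 69352912, minus strand), had 286, 287 and 281 CPM, or 57.7 ± 0.639 CPM per kb, with a CV of 1.11%. Ccna2, the cyclin A of dividing somatic cells (chromosome 3, 36564865 to 36573038, minus strand), had 223, 191 and 211 CPM, or 50.9 ± 3.95 CPM per kb. Ccnb2, which encodes cyclin B2 (chromosome 9, 70407689 to 70421554, minus strand), had 82.99, 96.5 and 100.0 CPM, or 60.8 ± 5.86 CPM per kb. These 3 genes lay close together per kb of merged exons but not per coding length, where Cdk1 was at 319.6, Ccna2 at 164 and Ccnb2 at 78.0 CPM per kb. In bulk RNA, more cells in a phase and more RNA per cell cannot be told apart. The ratio of Cdk1 to Ccnb2 was 0.955 ± 0.102, with Cdk1 higher in 1 of 3 libraries, and it was above 1 by both other lengths (0.955 to 4.12 over the 3 lengths). The ratio of Cdk1 to Ccna2 was 1.14 ± 0.0963 (0.932 to 1.95 over the 3 lengths), with the order turned by the longest transcript as length (log2 ratio -0.10).

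Ccnb1, which encodes cyclin B1, the main mitotic partner of CDK1 (chromosome 13, 100778739 to 100786486, minus strand), was lower than Ccnb2. It had 43.2, 42.7 and 39.4 CPM, or 9.90 ± 0.489 CPM per kb. Ccnb2 was 6.17 ± 0.850-fold above Ccnb1 per kb (2.42 to 6.17 over the 3 lengths) in 3 of 3 libraries, and Cdk1 5.83 ± 0.234-fold above Ccnb1 (3.88 to 9.88 over the 3 lengths). The longest identical stretch between the transcripts of these 2 cyclins was 19 bases, whereas Ccnb1 shared 278 bases with its pseudogene Ccnb1-ps. That pseudogene had 19, 7 and 6 counts, and reads that fit both copies may have been split or dropped by the counting. Ccnf, which encodes cyclin F, an F-box protein of a ubiquitin ligase that works without a CDK, had 31.4, 28.4 and 27.4 CPM, or 3.73 ± 0.269 CPM per kb. Across the phases, Cdk1 was 5.70 ± 0.136-fold as high as Cdk2 per kb (3.37 to 5.70 over the 3 lengths) in 3 of 3 libraries.

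Of the cyclin A pair, Ccna1, known for its role in the male germ line, had 1 count in all. The ratio of Ccna2 to Ccna1 per kb was 5035, with an exact Poisson interval (95%, counting error only) of 904 to 198886, and larger by the other lengths (5035 to 11177 over the 3 lengths).

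Starts of G2 and M genes are known for a pair of elements, CCAAT boxes bound by NF-Y and the cell cycle homology region TTTGAA, which is bound by the DREAM and MMB complexes. Windows with TTTGAA and at least 2 CCAAT, each on either strand, numbered 686 of 32851 (2.09%), and those of Cdk1, Ccnb2, Ccnf and Cdk16 were among them. The Ccnb1 window held 2 CCAAT and no TTTGAA. The stretches from 180 bases before to 20 bases after the start are shown to set the mitotic kinase, its B cyclins and cyclin F side by side, with TTTGAA and CCAAT in capitals, also where they lie on the opposite strand and so read reversed and complemented. They lie at chr10:69352893-69353092, minus strand, for Cdk1, chr9:70421535-70421734, minus strand, for Ccnb2, chr17:24251390-24251589, minus strand, for Ccnf, and chr13:100786467-100786666, minus strand, for Ccnb1.
Cdk1: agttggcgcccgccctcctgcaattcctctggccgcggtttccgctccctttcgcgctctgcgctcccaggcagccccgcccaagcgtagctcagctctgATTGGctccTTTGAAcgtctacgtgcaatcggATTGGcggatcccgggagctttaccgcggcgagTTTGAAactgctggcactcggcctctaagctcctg
Ccnb2: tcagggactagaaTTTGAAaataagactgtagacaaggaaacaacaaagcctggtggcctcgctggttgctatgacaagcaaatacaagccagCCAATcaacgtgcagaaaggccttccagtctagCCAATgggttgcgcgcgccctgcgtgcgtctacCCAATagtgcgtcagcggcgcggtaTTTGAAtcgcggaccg
Ccnf: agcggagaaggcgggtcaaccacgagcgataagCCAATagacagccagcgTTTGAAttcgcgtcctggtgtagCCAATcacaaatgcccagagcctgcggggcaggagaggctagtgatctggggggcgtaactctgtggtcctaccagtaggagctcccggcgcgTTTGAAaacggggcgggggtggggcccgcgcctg
Ccnb1: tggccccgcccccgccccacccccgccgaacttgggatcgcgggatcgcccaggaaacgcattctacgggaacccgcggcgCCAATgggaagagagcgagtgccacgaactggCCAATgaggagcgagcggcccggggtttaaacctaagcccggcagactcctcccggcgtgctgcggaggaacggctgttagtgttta

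In Cdk1 and Ccnf a TTTGAA began 15 and 14 bases before the start, and in Ccnb2 at base 5 after it. The 3 CCAAT of Ccnb2 were evenly spaced, 33 bases apart, and the 2 of Ccnb1 were 32 bases apart, as were the 2 printed for Cdk1. Those of Ccnf were 40 bases apart, and the remaining CCAAT of the Cdk1 window lay 128 bases before the first printed one. By itself TTTGAA was in 5 of the 35 genes with a window (14.3%, Ccni besides those named), against 16.0% of the windows of protein-coding genes and 17.9% of all windows. CCAAT was in 17 (48.6%, against 38.2% and 37.4%) and the GC box GGGCGG in 29 (82.9%, against 46.2% and 35.7%). Of 3 forms of the E2F site, TTTCGCGC was in Cdk1 alone among these genes (0.323% of all windows), TTTCCCGC in Cdk2 alone (1.07%) and TTTGGCGC in none (0.514%). The TATA form TATAAA was in Cdk6 alone (13.6%), and GGGACTTTC, a form of the NF-κB site, in none (0.353%). Matches of different motifs were allowed to share bases. The absence of a match says only that these letters are not in this window.

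**Figure D2:**
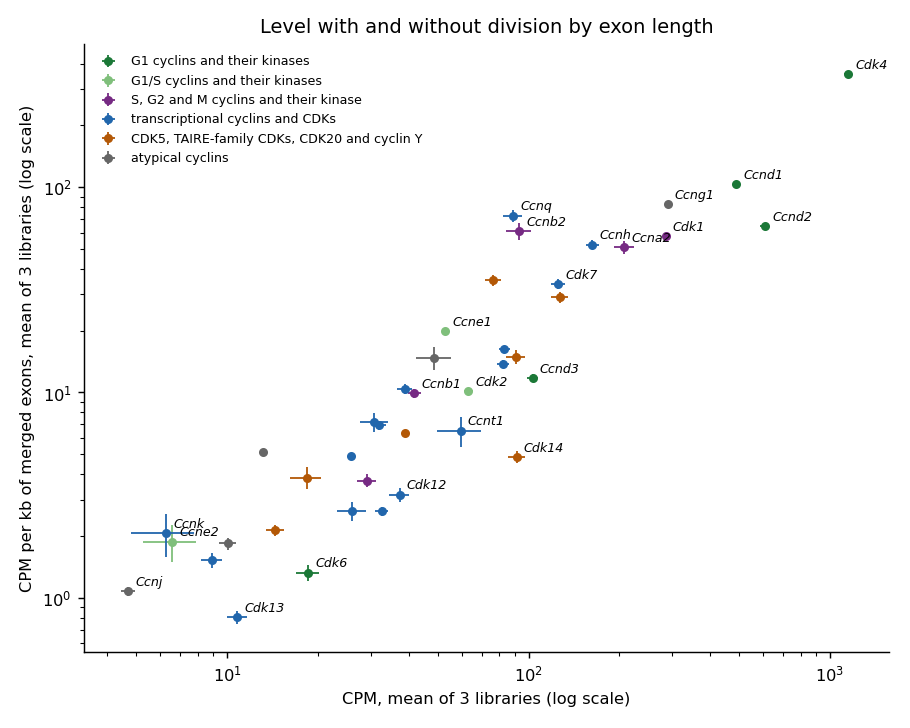
Mean level per kb of merged exons (CPM per kb) against mean CPM of the 41 detected genes, both on log axes, with bars for the SD over the 3 IL-1 libraries. Cdk4 lies apart at the top right at 354 CPM per kb, while Cdk14, with merged exons of 18.9 kb, lies low for its reads.

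Transcriptional cyclins and CDKs were at 1 CPM or more in each library in 16 of 16 cases and summed to 237 ± 6.56 CPM per kb. This was above the sum of the S, G2 and M genes, but over 16 genes against 7. The median of mean CPM, not corrected for length, had the other order. It was 34.9 CPM for the transcriptional genes and 41.8 CPM for the S, G2 and M genes. Cdk7, the CDK-activating kinase and the kinase of TFIIH (chromosome 13, 100697024 to 100730942, minus strand), had 125, 132 and 119 CPM, or 33.8 ± 1.81 CPM per kb, the highest per kb of the kinases in this set. Ccnh, its cyclin H (chromosome 13, 85189377 to 85213731, plus strand), had 155, 171 and 162 CPM, or 52.4 ± 2.59 CPM per kb. Cdk7 was thus at 0.645 ± 0.0286 of Ccnh per kb, lower in 3 of 3 libraries. Mnat1, the assembly factor of the same module, had 79.2, 104 and 101 CPM.

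Pairs of cyclin and kinase in this set were uneven in both directions. Cdk10, which has been tied to transcription and to primary cilia, had 34.4, 28.02 and 30.1 CPM, or 7.16 ± 0.752 CPM per kb. Ccnq, its cyclin, had 87.05, 95.6 and 83.5 CPM and, with merged exons of only 1.224 kb, held rank 4 of the family at 72.5 ± 5.08 CPM per kb (rank 6 by longest transcript and 9 by coding length). Cdk10 was at 0.0994 ± 0.0147 of Ccnq per kb (0.0994 to 0.243 over the 3 lengths). Cdk8, the kinase of the Mediator kinase module, had 29.3, 24.5 and 24.2 CPM, or 2.64 ± 0.289 CPM per kb, and Ccnc, its cyclin C, had 80.1, 86.8 and 82.3 CPM, or 16.2 ± 0.672 CPM per kb. Cdk8 was therefore at 0.163 ± 0.0234 of Ccnc (0.163 to 0.281 over the 3 lengths), a lower ratio than that of Cdk10 to Ccnq per coding length only. Cdk19, the paralog of Cdk8 in the same module, had 8.17, 8.95 and 9.63 CPM, or 1.53 ± 0.125 CPM per kb, so that Cdk8 was 1.75 ± 0.335-fold higher (1.75 to 4.39 over the 3 lengths), in 3 of 3 libraries.

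Cdk9, the kinase of the elongation factor P-TEFb, had 33.8, 30.5 and 31.4 CPM, or 6.92 ± 0.378 CPM per kb. Ccnt1, its cyclin T1 (chromosome 15, 98538690 to 98567736, minus strand), had 68.7, 49.03 and 60.9 CPM, or 6.50 ± 1.08 CPM per kb. The ratio of Cdk9 to Ccnt1 was 1.08 ± 0.136, higher in 2 of 3 libraries, so the order of these 2 genes did not hold. Ccnt1 also had the largest departure from counting error in the family, a chi-square of 29.4 per degree of freedom where counting error alone gives about 1, with the highest level in replicate 1 and the lowest in replicate 2. Ccnt2, which encodes the alternative subunit cyclin T2, had 34.3, 30.95 and 32.3 CPM, or 2.64 ± 0.137 CPM per kb, and Ccnt1 stood 2.46 ± 0.291-fold above it in 3 of 3 libraries.

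Cdk12 and Cdk13, which share the partner cyclin K and act on the polymerase during elongation, had 40.6, 35.4 and 36.1 CPM and 10.1, 10.6 and 11.7 CPM in replicates 1 to 3. Cdk12 was 3.99 ± 0.556-fold above Cdk13 per kb (3.54 to 7.39 over the 3 lengths) in 3 of 3 libraries, and Cdk13, at 0.802 ± 0.0604 CPM per kb, was the lowest of the 41 detected genes by each of the 3 lengths. The longest identical stretch between their transcripts was 39 bases, the most of any paralog pair compared. Ccnk, which encodes cyclin K, had 6.26, 4.81 and 7.80 CPM, the largest CV of the 41 genes (23.8%), and 2.07 ± 0.492 CPM per kb. Cdk12 was 1.60 ± 0.362-fold as high as Ccnk (1.60 to 2.90 over the 3 lengths). Cdk11b, a kinase known from splicing, had 37.5, 37.8 and 41.6 CPM, or 10.4 ± 0.601 CPM per kb. Of its L cyclins, Ccnl1 had 86.2, 79.1 and 81.7 CPM, or 13.7 ± 0.597 CPM per kb, and Ccnl2 had 26.3, 25.9 and 25.2 CPM, or 4.88 ± 0.102 CPM per kb, with Ccnl1 2.81 ± 0.106-fold higher in 3 of 3 libraries. Cdk11b was at 0.757 ± 0.0590 of Ccnl1 (0.322 to 0.757 over the 3 lengths), lower in 3 of 3 libraries.

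**Figure D3:**
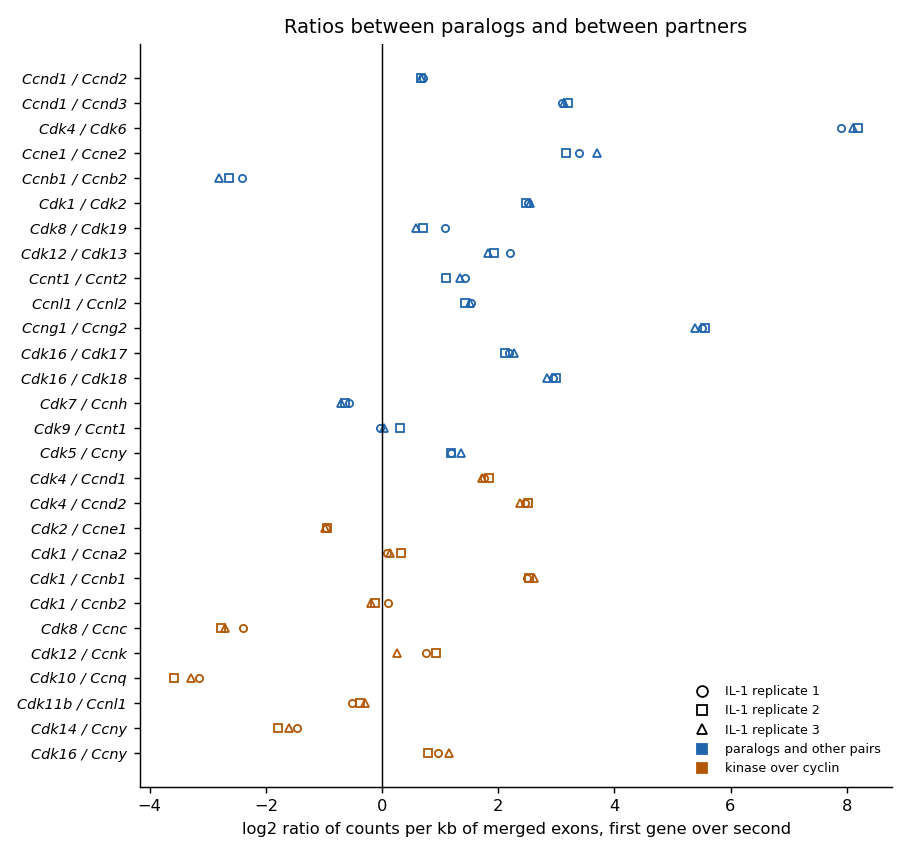
Log2 ratio per kb of merged exons (numerator over denominator) for 28 pairs of paralogs or of a kinase over a cyclin, with 1 point for each IL-1 library and a line at 0 for equal levels. By merged exons, Cdk4 over Cdk6 is farthest above 0 and Cdk10 over Ccnq farthest below, while the points of Cdk9 over Ccnt1 and of Cdk1 over Ccnb2 fall on both sides of 0.

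Of CDK5, the TAIRE kinases, CDK20 and cyclin Y, 7 of 8 were at 1 CPM or more. Cdk5, best known in neurons (chromosome 5, 24407597 to 24423587, minus strand), had 71.2, 79.4 and 78.3 CPM, or 35.2 ± 2.04 CPM per kb. Of its neuronal activators, Cdk5r1 (p35) had 25, 22 and 25 counts, or 1.34 ± 0.117 CPM, and Cdk5r2 (p39) had 1, 0 and 0 counts. Cdk16, a TAIRE kinase with a role in spermatogenesis, had 123, 122 and 137 CPM, or 29.1 ± 1.87 CPM per kb, and stood 4.57 ± 0.250-fold above its paralog Cdk17 and 7.59 ± 0.415-fold above Cdk18, in 3 of 3 libraries each. Cdk17 had 37.8, 39.2 and 39.5 CPM, or 6.37 ± 0.146 CPM per kb, and Cdk18 had 17.6, 16.6 and 20.8 CPM, or 3.85 ± 0.462 CPM per kb. The ranges of the 3 kinases did not overlap per kb. Cdk14 had 98.4, 87.8 and 87.7 CPM, or 4.84 ± 0.324 CPM per kb, and its merged exons of 18.9 kb far exceed its longest transcript of 5.15 kb. Against its paralog Cdk15, taken at the floor of 3 counts over the 3 libraries, Cdk14 was at least 218-fold higher by merged exons, the smallest bound of the 3 lengths.

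Ccny encodes cyclin Y, a membrane-bound cyclin that activates CDK14 and CDK16. It had 88.1, 98.6 and 85.9 CPM, or 14.9 ± 1.11 CPM per kb, and ratios to it depended on the length used. Cdk14 was at 0.326 ± 0.0365 of Ccny per kb of merged exons (0.326 to 1.13 over the 3 lengths) and above it by the longest transcript (log2 ratio 0.17). Cdk16 was 1.96 ± 0.249-fold (0.970 to 2.48 over the 3 lengths) and Cdk5 2.37 ± 0.171-fold as high as Ccny (0.983 to 2.37 over the 3 lengths), and both were level with or below it per coding length (log2 ratios -0.05 and -0.03). Cdk20, a kinase linked to cilia, had 15.5, 14.04 and 13.8 CPM, or 2.13 ± 0.140 CPM per kb.

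Among the atypical cyclins, Ccng1, a p53 target that encodes cyclin G1 (chromosome 11, 40748552 to 40755309, minus strand), stood apart. It had 289, 288 and 292 CPM, or 82.4 ± 0.565 CPM per kb, rank 3 of the family (4 by either other length), and the smallest CV of the 41 genes (0.685%). Its paralog Ccng2 had 9.91, 9.45 and 10.8 CPM, or 1.84 ± 0.122 CPM per kb, and Ccng1 was 44.9 ± 2.63-fold above it in 3 of 3 libraries. Ccni had 55.2, 42.4 and 48.6 CPM, or 14.8 ± 1.93 CPM per kb, with a CV of 13.1%. Ccno, known from cells with many cilia, had 13.2, 12.9 and 13.3 CPM, or 5.15 ± 0.0811 CPM per kb, and Ccnj had 4.40, 4.86 and 4.79 CPM, or 1.08 ± 0.0567 CPM per kb.

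Transcripts of the proteins that restrain or activate these kinases were also largely present. Of 8 CDK inhibitors, 7 were at 1 CPM or more, against 51.1% of all protein-coding genes. Cdkn1a, which encodes the p53 target p21, had 167, 202 and 220.0 CPM, lowest in replicate 1, and Cdkn2b, which encodes p15, had 121, 135 and 142 CPM. Cdkn2c, which encodes p18, was at 33.5 ± 5.31 CPM. Cdkn2a, which encodes p16 and ARF, was at 22.8 ± 2.01 CPM and Cdkn3, a CDK phosphatase, at 18.9 ± 3.32 CPM. Cdkn2d, which encodes p19 of the INK4 family, was at 10.99 ± 0.606 CPM and Cdkn1b, which encodes p27, at 10.5 ± 1.40 CPM. Cdkn1c, which encodes p57, had 6, 5 and 0 counts.

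From each of the remaining lists of partners, the 2 genes with the highest and the 1 with the lowest mean CPM are given, and CPM are not corrected for length. Each count at 1 CPM or more stands against 51.1% of all protein-coding genes, and the lists hold chosen genes. Of 10 activators and phosphoregulators 9 were at 1 CPM or more, with Cks1b, a small CDK-binding subunit, at 220.3 ± 6.77 CPM, Mnat1 at 94.7 ± 13.6 CPM and Cdk5r2 at the counts given above. The RB and E2F list reached it in 13 of 13 cases, with the repressive E2f4 at 140.4 ± 8.05 CPM, the E2F partner Tfdp1 at 80.9 ± 4.69 CPM and E2f2 at 4.23, 1.49 and 1.56 CPM. Foxm1, Mybl2 and subunits of the DREAM and MMB complexes did so in 7 of 7 cases. Among these the histone-binding Rbbp4 was at 173 ± 9.56 CPM, Lin37 at 21.96 ± 2.37 CPM and Lin52 at 5.55 ± 1.12 CPM. Cyclin degradation genes were at 1 CPM or more in 9 of 9 cases. The ubiquitin ligase subunits Skp1 and Cul1 were at 494 ± 14.3 and 296 ± 15.8 CPM, and Ambra1, which targets the D cyclins, at 9.39 ± 2.44 CPM.

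Of the partners of P-TEFb, 8 of 8 were at 1 CPM or more, against the same 51.1%. Larp7, which binds the 7SK RNA that holds P-TEFb inactive, was at 68.05 ± 7.09 CPM, the elongation scaffold Aff4 at 60.2 ± 2.29 CPM and the inhibitor Hexim1 at 8.86 ± 1.55 CPM. The 7SK RNA gene Rn7sk, which is not a polyadenylated transcript, had 67.00, 80.2 and 29.2 CPM. Of the Mediator kinase module, 4 of 4 were, with Med13l at 69.1 ± 2.23 CPM, Med13 at 53.02 ± 2.48 CPM and Med12l at 1.82 ± 0.295 CPM.

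Between the 3 libraries the departure from counting error had a similar median in the family and over all genes, without matching for level. The median chi-square per degree of freedom was 3.75 over the 41 genes, against 3.93 over all protein-coding genes at 1 CPM or more, and 33 of the 41 (80.5%, against 82.0%) were above 1. The median CV was lower in the family, 5.81% against 8.33%, at a higher median level of 48.7 CPM, against 33.8 CPM. Both measures depend on the level, so the spread beside genes of equal level was not tested. Replicate 1 was the highest library for 15 of the 41 genes (36.6%, against 46.0% of all), replicate 2 for 12 (29.3%, against 26.7%) and replicate 3 for 14 (34.1%, against 27.3%). This order depended on the scaling. With TMM factors replicate 1 was highest for 13 genes (31.7%, against 37.9%), replicate 2 for 16 (39.02%, against 34.1%) and replicate 3 for 12 (29.3%, against 28.02%), and the counts of the family were the same with relative log expression factors. Each library was set against the mean of the other 2 on the log2(CPM + 0.5) scale, and the median over a list is given as a fold. For the G1 genes these folds were 0.983, 0.979 and 1.04 in replicates 1 to 3, for the G1/S genes 1.002, 1.05 and 0.949, for the S, G2 and M genes 1.05, 1.01 and 0.981 and for the transcriptional genes 1.01, 0.950 and 0.987. With TMM these groups lay between 0.951 and 1.08. The 3 G1/S genes were each highest in replicate 2. They were lowest in replicate 3 in 3 of 3 cases by library totals, against 27.6% of all detected protein-coding genes. With either scaling it was 2 of 3, against 2956 of 10721 with TMM. Of the 3, Ccne2 alone had a wide spread.

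Other cell cycle genes were read in the same way, and differences between lists were not tested. The S phase genes, such as the replication helicase subunits Mcm6 (396, 331 and 324 CPM) and Mcm4 (259.6, 213 and 210.1 CPM), had folds of 1.21, 0.906 and 0.933 (1.17, 0.932 and 0.938 with TMM). Of these 15 genes, 13 were highest in replicate 1 (11 with either TMM or relative log expression scaling), against 46.0% of all detected protein-coding genes (37.9% with TMM). Ung, a DNA repair glycosylase, was at 11.8 ± 0.636 CPM. The G2 and M genes, such as the ubiquitin-conjugating enzyme Ube2c (248, 269 and 297 CPM) and the topoisomerase Top2a (261, 214 and 255 CPM), had folds of 1.06, 0.855 and 1.07 (1.02, 0.877 and 1.07 with TMM). Of the 17 detected, 13 were lowest in replicate 2 (12 with either scaling), against 42.6% of all detected protein-coding genes (3814 of 10721 with TMM). Ccnb1ip1, the only gene of this list that was not detected, had 1, 0 and 0 counts. The CDK inhibitors had folds of 0.877, 1.03 and 1.11 (0.852, 1.05 and 1.11 with TMM), and 0 of the 7 detected were highest in replicate 1, against the same 46.0%. Over all detected protein-coding genes the median log2 ratio was 0.04 in replicate 1, -0.04 in replicate 2 and -0.003 in replicate 3. With 1 group the differences between libraries have no further replicate, and what produced them was not tested.

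**Figure D4:**
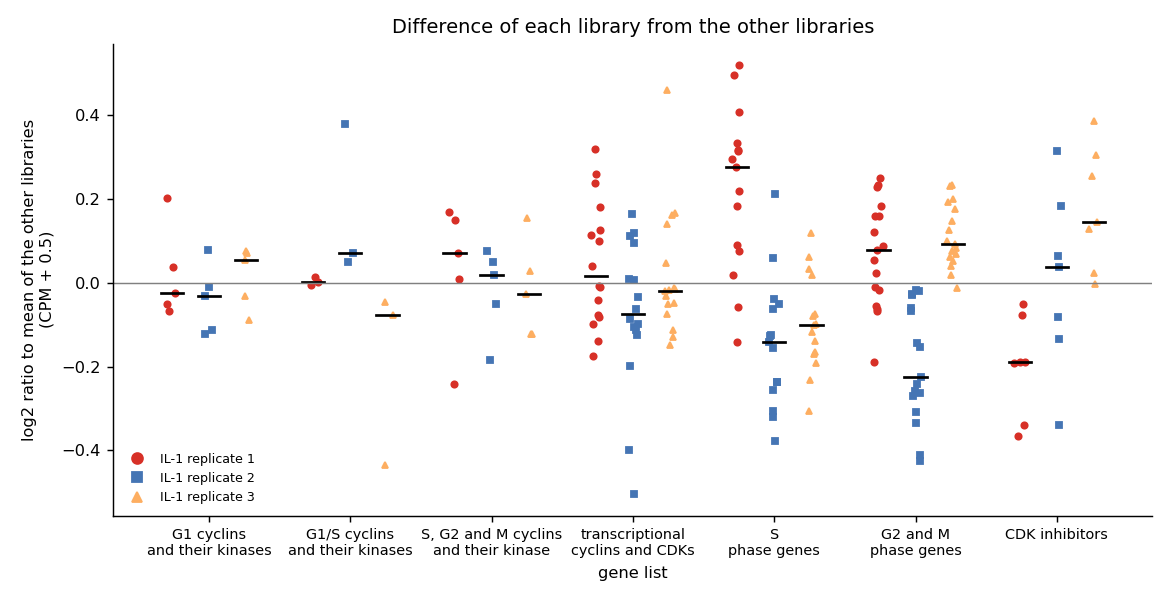
Log2 ratio of each IL-1 library to the mean of the other 2, on the log2(CPM + 0.5) scale, with 1 point for each detected gene and a bar at the median, for 4 groups of cyclins and CDKs and 3 lists of other cell cycle genes. The bars of the cyclin and CDK groups lie between -0.08 and 0.07, while the bar of the S phase genes lies above 0 in replicate 1 and that of the G2 and M genes below 0 in replicate 2.

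Neighbouring genes set a limit to several of these levels. In GENCODE M21, 10 of the 44 genes share exon bases with a protein-coding gene that has counts, each on the opposite strand. Without a known strand setting of the counting, reads in the shared bases cannot be told apart. Tspan31, at 282 CPM, shares 641 bases (19.7% of the merged exons) with Cdk4, and LTO1, at 20.5 CPM, shares 1100 bases (23.4%) with Ccnd1. Exosc9, at 132 CPM, shares 510 bases (12.5%) with Ccna2, and Ints8, at 41.6 CPM, shares 609 bases (17.4%) with Ccne2. With smaller shares, Elk3, at 93.5 CPM, overlaps 5.18% of Cdk17, and Bysl, at 102 CPM, overlaps 4.11% of Ccnd3.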

How the data were processed

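PolyA RNA was measured in 12 samples. Per the labels' protocols, cells of at most 20 passages were detached and lysed in 0.1% detergent, and cDNA was made in the lysate, pre-amplified over 10 cycles and tagmented. No molecular identifiers are mentioned, so intervals and floors cover counting error only. The deposited values are raw counts per Entrez gene ID, made with CASAVA, STAR, featureCounts and build mm10 per the submitters' processing notes. The tool versions, the annotation, strandedness and multi-mapping rule are not given in the sources used.

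All tables were compared count by count, and the 9 copies of IL-1 replicate 3 were left out. CPM were computed from library totals of 17254518 to 18578859 counts, including IDs without a symbol (2.14% of counts). Detection meant at least 1 CPM in every library, where 3 counts are 0.161 to 0.174 CPM. Symbols, types and positions came from RefSeq (GRCm38.p6; 25275 of 27179 IDs matched), merged exon, longest transcript and coding lengths from GENCODE M21, and promoter windows from RefSeq by gene ID (35 of 44 genes matched). A total of 9 motifs were searched on both strands. Pair ratios were taken within each library and averaged on the linear scale. Factors by TMM and relative log expression came from edgeR 4.0.16 in R 4.3.3, and Python 3.11.15, numpy 2.4.6, pandas 2.3.3 and matplotlib 3.10.9 did the rest. Only the library folds and pair ratios were tried on simulated counts. True folds of 1, 1.1, 1.25 and 1.5 in replicate 1 came back as median folds of 1.02, 1.07, 1.23 and 1.45 over 200 genes.

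The genes, lists and pairs were chosen with earlier results of these data known, and the kinase over cyclin pairs other than those of Cdk7, Cdk9 and Cdk5 after the levels had been seen. All family members are named, as are all CDK inhibitors and the 2 highest and the lowest gene by mean CPM of every other partner list. Rn7sk, Ccnb1-ps, Ccnd3-ps, the neighbouring genes and the markers were named in addition. The listed symbols Cdk11a, Ccni2 and Ccnp matched no protein-coding gene of the table. Alternatives were other detection levels, TMM and relative log expression factors, other gene lengths, pseudocounts, no filter and each library left out.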

Additional observations from a re-analysis of the deposited data

How the results depend on the processing

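The count of 41 detected family members was the same at 0.5 and 2 CPM, with TMM or relative log expression factors and without each library. Levels in CPM moved by less than 1 SD under either set of factors. Gene length mattered most. Using the longest transcript and then the coding length, the summed level per kb became 815 and 2654 CPM for the G1 genes, 47.9 and 109 for the G1/S genes and 219.9 and 607 for the S, G2 and M genes. It became 328 and 726 for the transcriptional genes, 128 and 379 for CDK5, the TAIRE kinases, CDK20 and cyclin Y, and 108.5 and 397 for the atypical cyclins. Per gene, these lengths raised the level by a median factor of 1.29 and 3.76, with Cdk4 at rank 1 under each. The ratio per kb moved by over 1.5 times for 19 of 28 pairs, and the mean log2 ratio changed sign for 7. By coding length it was -0.35 for Ccnd1 over Ccnd2, -0.027 for Cdk5 over Ccny, 0.49 for Cdk2 over Ccne1 and -0.052 for Cdk16 over Ccny. By longest transcript it was -0.10 for Cdk1 over Ccna2 and 0.17 for Cdk14 over Ccny. For Cdk1 over Ccnb2, whose order differed between libraries, it was -0.07 by merged exons, 0.10 by longest transcript and 2.04 by coding length. These changes follow from the lengths alone. No paired analysis was possible because no group besides IL-1 had its own counts. Ratios to genes with few counts, such as Ccna1, are limited by depth.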

Other observations

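Within 500000 bases on each side of Cdk4 lie 32 protein-coding genes with counts, with a median of 16.6 CPM, and 8 of them were above 100 CPM. They include Cdk4 itself and Shmt2, which encodes a mitochondrial enzyme of one-carbon metabolism, at 839.5 CPM. For reference, 89.5% of all protein-coding genes, including those without reads, had a lower mean than Ccnd3 at 103 CPM. Whether the region differs from others was not tested. These levels are not corrected for length.

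Cdkn2a had 359, 449 and 423 counts in replicates 1 to 3 although NIH3T3 cells are commonly described as having lost the Ink4a/Arf locus. Counts per gene do not separate the p16 and ARF transcripts or a partial locus, and the source of these reads was not tested. The neighbouring Cdkn2b had 2089, 2443 and 2634 counts.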
